A study of Mus musculus with 6 samples.

Results

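Basement membrane genes of extraembryonic endoderm were followed in ETX-embryos, mouse stem cell aggregates that come to resemble an embryo and combine embryonic stem cells, trophoblast stem cells and extraembryonic endoderm (XEN) cells. The genes are the 8 rows of the deposited table named Col4a1, Col4a2, Lama1, Lamb1, Lamc1, Nid1, Hspg2 and Sparc, of 12826 rows in all. They were chosen by name with results of these same libraries known, so their levels and their differences between domains are given as a description with no test. All 8 passed the filter on low values, a mean of at least 1 FPKM (sequenced fragments per kilobase of a transcript's length and per library size) over the 6 libraries. Each ETX-embryo carried a GFP reporter of T (Brachyury). Its trophoblast stem cell compartment was cut off, and the embryonic stem cell compartment was cut lengthwise into a GFP-negative piece, called anterior, and a GFP-positive piece, called posterior. Both pieces of 3 individuals, A, B and C, gave 1 library each, so that there were 3 anterior and 3 posterior libraries, with no treatment in either group. The labels give the stage only as embryo, and give neither the number of cells in a piece nor the clone of the reporter line. T followed the labels in embryos A and B but not in C, where the library labelled anterior C had 5.44 in log2(FPKM + 1) and its posterior counterpart 0. Other streak genes followed the labels in C: Mixl1, Mesp1, Lhx1, Eomes and Wnt3 were at 0, 0, 0, 1.25 and 0.92 in the library labelled anterior C and at 4.97, 5.16, 5.04, 3.72 and 6.15 in its posterior counterpart. Of the 8 streak and mesoderm markers, T and Hand1 (1.57 and 1.55) were not higher there. Below, values given in threes run A, B, C, anterior before posterior, in log2(FPKM + 1) unless FPKM is named.

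A basement membrane is a sheet of extracellular matrix under an epithelium. Collagen IV forms a network of triple helices, each built from Col4a1 and Col4a2 chains in most embryonic membranes, and the laminin of early embryos is a cross-shaped trimer of the products of Lama1, Lamb1 and Lamc1. Nidogen (Nid1) binds the laminin gamma 1 chain and links it to collagen IV, perlecan (Hspg2) is a heparan sulphate proteoglycan held in the same sheet, and Sparc is a secreted calcium-binding protein that binds collagens. XEN cells and the parietal endoderm are known for secreting large amounts of collagen IV and laminin, which build Reichert's membrane, and the embryonic visceral endoderm lays down the membrane under the epiblast.

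Col4a1 and Col4a2 lie head to head, and the stretch that holds both of their start sites is shown because these genes kept the steadiest ratio of the pairs described below in embryos A and B. In RefSeq (GRCm38.p6, the same coordinates as mm10) Col4a1 starts at position 11312826 of chromosome 8 on the minus strand and Col4a2 at 11312805 on the plus strand, so that their first exons overlap by 22 bases. The overlap (chr8:11312805-11312826) is printed on each strand, 5′ to 3′, with a GC box (GGGCGG, or CCGCCC on the other strand) in capitals.
Strand of Col4a2: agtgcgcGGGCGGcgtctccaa
Strand of Col4a1: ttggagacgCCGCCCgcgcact
Of 27025 genes with a promoter window (250 bases before to 50 after a start), 11.9% had a window that overlapped an opposite-strand window of another gene. Without strand information, reads from these shared bases cannot be assigned to either gene.

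For comparison, the sequence before the first annotated base of Lamb1, which varied alongside Lamc1, is set beside those of Nid1 and Hspg2, which did not follow the laminin chains. GC boxes and CCAAT boxes (CCAAT, or ATTGG on the other strand) are in capitals, 5′ to 3′ on the plus strand in GRCm38.p6.
Lamb1 (chr12:31265043-31265233): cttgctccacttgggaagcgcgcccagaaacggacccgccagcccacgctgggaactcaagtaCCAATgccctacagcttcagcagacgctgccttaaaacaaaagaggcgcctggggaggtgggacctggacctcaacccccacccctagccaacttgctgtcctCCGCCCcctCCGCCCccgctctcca
Nid1 (chr13:13437352-13437550): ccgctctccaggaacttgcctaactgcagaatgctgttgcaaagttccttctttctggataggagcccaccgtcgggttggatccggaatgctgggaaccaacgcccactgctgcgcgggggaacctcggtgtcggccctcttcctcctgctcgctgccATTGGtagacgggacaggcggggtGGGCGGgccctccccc
Hspg2 (chr4:137468553-137468768): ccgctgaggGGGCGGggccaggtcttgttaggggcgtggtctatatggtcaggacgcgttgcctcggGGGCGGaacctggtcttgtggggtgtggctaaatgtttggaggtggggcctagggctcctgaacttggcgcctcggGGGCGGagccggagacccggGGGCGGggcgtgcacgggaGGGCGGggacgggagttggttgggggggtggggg
The Hspg2 stretch held 5 GC boxes and no CCAAT box, that of Lamb1 2 GC boxes and 1 CCAAT box, and that of Nid1 1 of each. RefSeq windows of 300 bases were matched for 6 of the 8 genes (not Lama1 or Lamc1). GGGCGG was present on either strand in 5 of these 6 windows, all but that of Sparc, and in 35.7% of 32851 windows. The Col4a1 and Col4a2 windows share 78 bases, so they are not separate cases. The only GC box of the Col4a1 window is the one in the printed overlap, which the Col4a2 window also holds. CCAAT was present in 4 of the 6 and in 37.4% of all windows. GATAA is 1 form of the site recognised by GATA factors, and ACAAT is a Sox core. Neither was in any of the 6 windows, against 25.4% and 31.0% of all windows. Other forms of the GATA site were not counted, and the printed Nid1 stretch holds GATAG. The 6 windows were 55.3% to 74.0% G and C, where the median window has 52.7%.

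The libraries were of unequal depth and breadth. Between 9335 and 11082 genes were listed above 0 in the anterior libraries and between 10260 and 12141 in the posterior ones. Low FPKM values fell on steps of whole reads, which gave depths relative to anterior A of 1.41 and 1.43 for the other anterior pieces and of 2.20, 2.83 and 1.56 for the posterior pieces. Depth and domain cannot be told apart. The median posterior minus anterior difference over all 10914 genes tested was 0.43, with 0.91, 0.02 and 0.17 by embryo. Anterior A stood apart, with Spearman correlations across genes of 0.57 to 0.66 with each other library, against 0.63 to 0.87 in the other pairs. In a library of a whole piece, fewer cells of a type and less RNA per cell cannot be told apart.

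Collagen IV genes were highest in anterior A and B. Col4a1 (chromosome 8, 11198423 to 11312826) stood at 7.89 and 8.12 there and at 3.64 in the library labelled anterior C. Posterior pieces of A and B had 4.31 and 4.74, and the library labelled posterior C had 5.65. Anterior A and B lay above every other library, and the library labelled anterior C was the lowest of the 6. On the FPKM scale, Col4a1 was at 237 and 278 FPKM in the anterior pieces of A and B, against 18.8 and 25.6 FPKM in the posterior pieces of the same embryos. Col4a2 (chromosome 8, 11312805 to 11449287) was at 6.14, 6.21 and 0.25 anterior against 2.57, 2.98 and 4.71 posterior. The order of the libraries was the same for both collagen genes. The level of Col4a2 in the library labelled anterior C rested on about 5 reads (exact 95% Poisson interval 1.62 to 11.7, counting error only), where Col4a1 had about 308.

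The 3 chains of this laminin followed the same split. Lama1 (chromosome 17, 67697259 to 67822647), the alpha chain whose globular end binds cell surface receptors, was at 4.83, 5.84 and 0.07 anterior against 3.05, 1.87 and 5.42 posterior. Its second highest level was thus in the library labelled posterior C, while about 2 reads gave its level in the library labelled anterior C. Lamb1 (chromosome 12, 31265234 to 31329644), the beta chain, was at 6.82, 7.55 and 3.38 against 5.03, 4.56 and 6.49. Lamc1 (chromosome 1, 153218922 to 153332786), the gamma chain that carries the nidogen site, was at 5.12, 5.72 and 0.40 against 3.24, 2.60 and 4.13. For all 3 chains the anterior and posterior groups overlapped, with the library labelled anterior C below every posterior library. For Lama1, anterior A also lay below the library labelled posterior C.

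**Figure D1:**
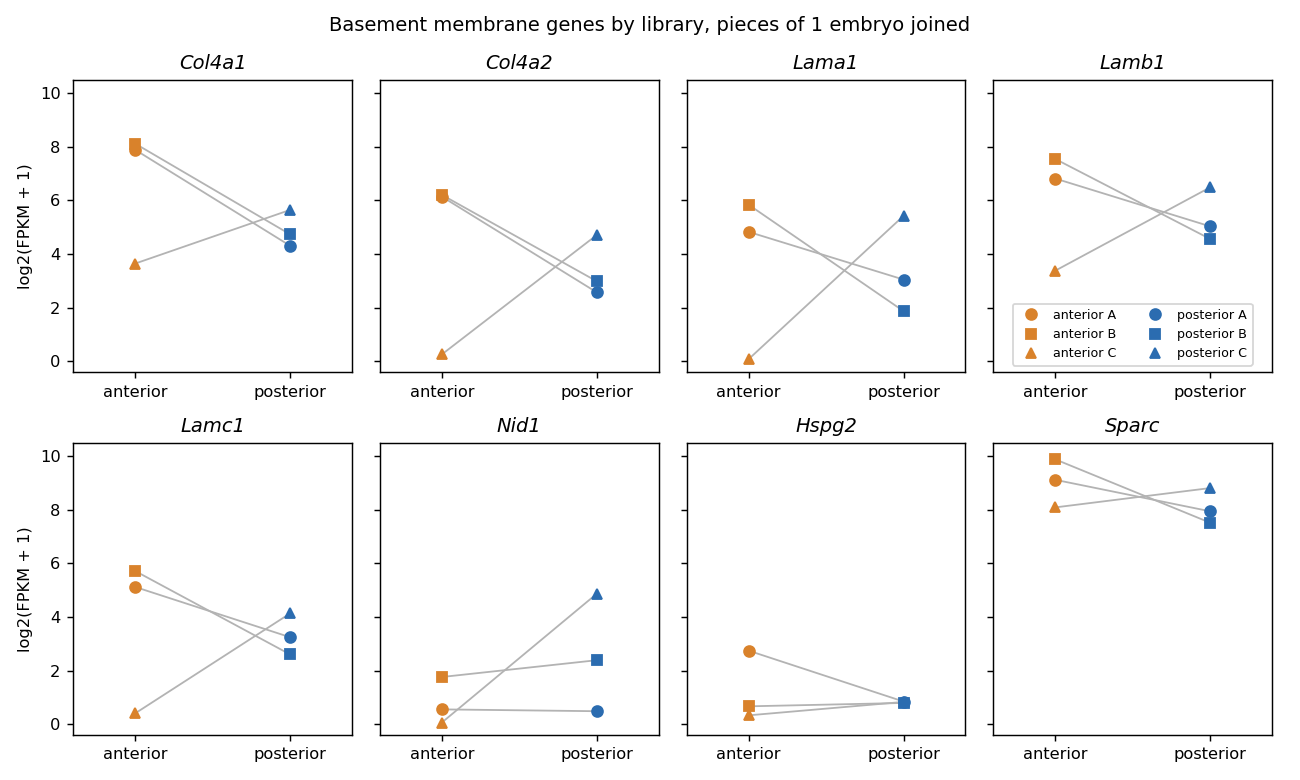
Vertical axis, log2(FPKM + 1) of the 8 genes, 1 panel per gene and 1 point per library (orange anterior, blue posterior; circle A, square B, triangle C), with a grey line joining the 2 pieces of an embryo. Both collagen IV genes, the 3 laminin genes and Sparc slope down in embryos A and B and up in embryo C, and Hspg2 lies between 0.79 and 0.84 in the 3 posterior libraries.

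The linker genes did not share that split. Nid1 (chromosome 13, 13437551 to 13512269) was at 0.55, 1.76 and 0.06 anterior against 0.48, 2.39 and 4.87 posterior. Its highest level, 28.2 FPKM, was in the library labelled posterior C, and it was below 1 FPKM in both libraries of embryo A. Hspg2 (chromosome 4, 137468769 to 137570630) was at 2.74, 0.66 and 0.33 against 0.84, 0.79 and 0.83. Anterior A, at 5.69 FPKM, was the single library in which Hspg2 exceeded 1 FPKM, so the filter mean for this gene rests on that library. Sparc (chromosome 11, 55394500 to 55423183) was at 9.12, 9.89 and 8.09 against 7.95, 7.52 and 8.81. Sparc lay between 182 and 945 FPKM and was the highest of the 8 in every library. The other 7 genes had their lowest level in the library labelled anterior C, as did 23.6% of all genes tested. The highest level was in anterior A or B for 7 of the 8 (30.1% of all genes), in anterior B for 6 of them (15.6% of all genes).

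Per kilobase, the levels fell in the order Sparc, Col4a1, Lamb1, Col4a2, Lamc1, Lama1, Nid1 and Hspg2. Means over the 6 libraries ran from 8.56 ± 0.87 (SD) for Sparc to 1.03 ± 0.86 for Hspg2 in log2(FPKM + 1). Sparc was above Col4a1, and Lamb1 above Col4a2, in 6 of 6 libraries. Col4a1 and Lamb1, which are neighbours in this order, differed by 0.09 ± 0.74 in log2 (SD over libraries). Col4a2 and Lamc1 differed by 0.27 ± 0.60, Lamc1 and Lama1 by 0.02 ± 0.70, and Nid1 and Hspg2 by 0.65 ± 2.12. These 4 differences were smaller than their spread, and that of Lama1 and Nid1 (1.83 ± 2.10) was too.

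The posterior piece had the lower level for 8 of the 8 genes in embryo A, where 30.8% of all genes were lower, for 6 in B (48.2%) and for 0 in C (40.9%). Col4a1, Col4a2, Lama1, Lamb1, Lamc1 and Sparc were lower in posterior A and B and higher in the library labelled posterior C, a pattern held by 9.52% of all genes. Of the 8 streak and mesoderm markers, Mixl1, Mesp1, Eomes, Wnt3, Lhx1 and Kdr had their higher level in the posterior piece of each embryo. T did so in A and B only, and Hand1 in no embryo (2.26, 2.14 and 1.57 against 1.71, 1.64 and 1.55). The 6 basement membrane genes were thus lower beside higher levels of most streak markers in A and B, and higher beside them in C. The genes were picked with the contrast of these libraries known, so the counts are given beside the background and nothing is read from them.

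In size, the posterior minus anterior difference of Col4a1 was -3.58, -3.39 and 2.0 (A, B, C). That of Col4a2 was -3.57, -3.23 and 4.46. The laminin differences were -1.78, -3.97 and 5.35 for Lama1, -1.79, -2.99 and 3.11 for Lamb1, and -1.88, -3.11 and 3.73 for Lamc1. In embryo A the collagen differences were thus nearly equal and the laminin differences smaller, and in embryo B the 5 chains lay between -3.97 and -2.99. Averaged over embryos, with the standard error of the fit, the difference was -1.66 ± 1.09 for Col4a1, -0.78 ± 1.47 for Col4a2, -0.13 ± 1.56 for Lama1, -0.55 ± 1.10 for Lamb1 and -0.42 ± 1.30 for Lamc1. It was 1.79 ± 1.16 for Nid1, -0.42 ± 0.90 for Hspg2 and -0.94 ± 0.70 for Sparc. The median of the 8 was -0.49, against 0.43 over all genes. Without embryo C the median of the 8 was -2.44, and without embryo A or B it was 0.31 or 0.55, so its sign depends on which embryos enter. With limma and Benjamini-Hochberg adjustment no gene of the table passed the threshold of 0.05 (0.0% of 10914). By unadjusted p at 0.05, 790 genes (7.24%) passed as higher and 86 (0.788%) as lower in the posterior domain, with none of the 8 among them.

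Col4a1 with Col4a2, and Lamb1 with Lamc1, kept a nearly fixed ratio in embryos A and B, and Lama1 a looser one to its partners. The difference of Col4a1 and Col4a2 within a library was 1.75 in anterior A, 1.91 in anterior B, 1.74 in posterior A and 1.75 in posterior B, in log2(FPKM + 1). Over these 4 libraries it spanned 0.17, while Col4a1 itself spanned 3.81 and Col4a2 3.64. In FPKM, Col4a1 was 3.40, 3.80, 3.82 and 3.72 times Col4a2. When 10913 other genes were ranked by the SD of their difference from Col4a1 over these 4 libraries, Col4a2 was the nearest of all (SD 0.08, median gene 2.43), and Col4a1 was in turn the nearest to Col4a2. The ranking of all pairs in these 4 libraries was added after the data had been seen, and over 6 libraries Col4a2 ranked 29. The library labelled posterior C had a smaller difference, 0.94, or 1.95 times as much Col4a1 as Col4a2. The library labelled anterior C had a larger one, 3.39, which rests on the few reads of Col4a2 given above. Over all 6 libraries the difference was 1.91 ± 0.80 (SD), still less than the SD of either gene (1.89 and 2.32). This closeness over 6 libraries was not particular to the collagen pair. Lamb1 (rank 14, SD 0.74) and Lamc1 (rank 28, SD 0.80) lay at least as near to Col4a1 as Col4a2 did. Lamc1 (rank 5, SD 0.60) lay nearer to Col4a2 than Col4a1 did (rank 13). Lamb1 and Lamc1, in contrast, lay nearer to each other than to either collagen gene.

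Lamb1 and Lamc1 also kept a nearly fixed ratio in embryos A and B. Lamb1 exceeded Lamc1 by 1.70, 1.83, 1.79 and 1.96 in anterior A, anterior B, posterior A and posterior B, a span of 0.26 where the genes themselves spanned 2.99 and 3.11. In embryo C the difference was 2.98 in the library labelled anterior C and 2.36 in the library labelled posterior C. Over 6 libraries it was 2.10 ± 0.49, the smallest SD of the 7 pairs compared. In the 4 libraries of embryos A and B, Lamb1 was the gene nearest to Lamc1. The ratios of the alpha chain spanned 0.99 to Lamb1 and 0.86 to Lamc1 in these 4 libraries. Lama1 minus Lamb1 was -1.99, -1.71 and -3.31 anterior against -1.99, -2.69 and -1.07 posterior. Lama1 minus Lamc1 was -0.29, 0.13 and -0.33 against -0.20, -0.73 and 1.29. The library labelled posterior C therefore held more Lama1 per Lamc1 than any other. In the library labelled anterior C these laminin differences rest on about 2 reads of Lama1 and 9 of Lamc1. There Lama1 was 0.159 times Lamc1 in FPKM, which the 1 added before the log compresses to -0.33.

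**Figure D2:**
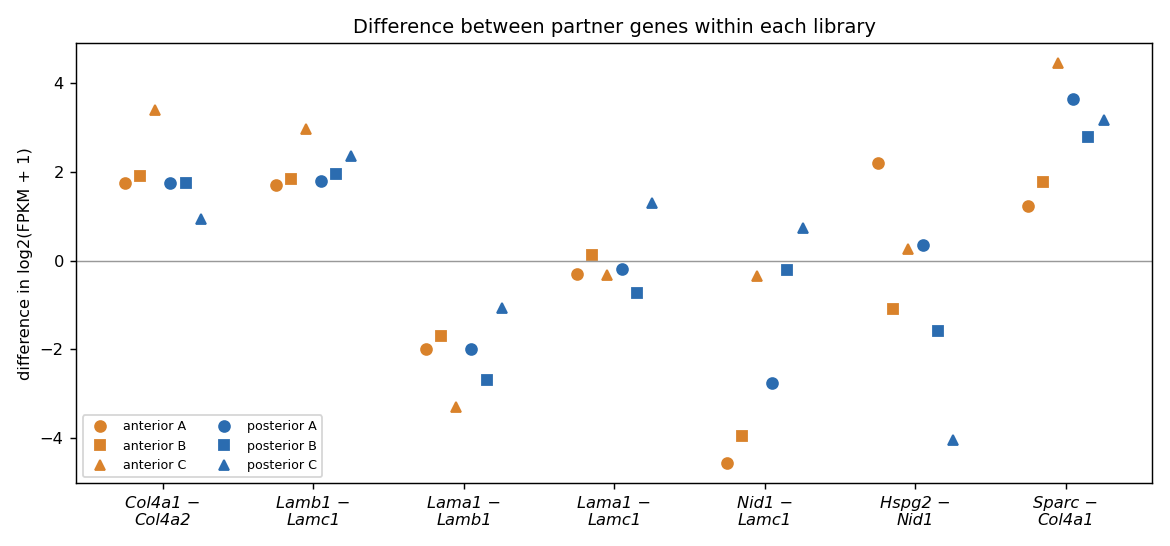
Difference in log2(FPKM + 1) within a library between 7 pairs of partner genes, 1 point per library (orange anterior, blue posterior; circle A, square B, triangle C). For Col4a1 and Col4a2, and for Lamb1 and Lamc1, the circles and squares lie within 0.17 and 0.26 of one another. For Nid1 and Lamc1, and for Hspg2 and Nid1, the circles and squares span 4.36 and 3.79. With the triangles of embryo C, the first 2 pairs run from 0.94 to 3.39 and from 1.70 to 2.98.

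The pairs with a partner outside the trimers varied more. Nid1 minus Lamc1 ran from -4.57 in anterior A to 0.74 in the library labelled posterior C, with an SD over 6 libraries of 2.21 that exceeded the SD of Nid1 (1.79) and of Lamc1 (1.92). In FPKM, Nid1 was 0.014 times Lamc1 in anterior A, 0.83 times in posterior B and 1.71 times in the library labelled posterior C. Nid1 was higher relative to Lamc1 in the posterior library of 3 of 3 embryos, by 1.81, 3.74 and 1.08. The value of embryo C rests on about 1 read of Nid1 and 9 of Lamc1 in the library labelled anterior C. Hspg2 minus Nid1 ran from 2.19 in anterior A to -4.04 in the library labelled posterior C. Sparc minus Col4a1 was 1.23, 1.76 and 4.45 anterior against 3.64, 2.78 and 3.17 posterior. Sparc thus varied in the same direction as Col4a1 in every embryo, over a narrower span. For the change of a ratio between domains, an exact two-sided sign-flip permutation test over the 3 embryos can give no p below 0.25. That smallest value was reached by Col4a1 with Col4a2, by Nid1 with Lamc1 and by Hspg2 with Nid1, and the exact test of the other 4 pairs gave 0.75 to 1. After adjustment over the 7 pairs no p can pass the threshold.

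**Figure D3:**
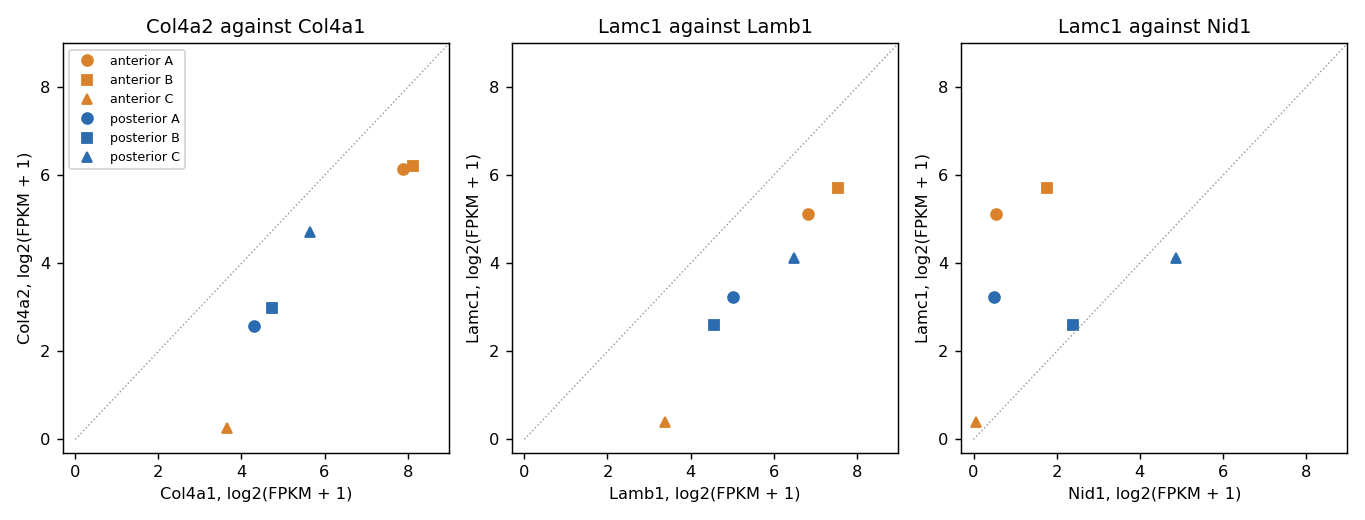
Level of Col4a2 against Col4a1, Lamc1 against Lamb1 and Lamc1 against Nid1, both axes in log2(FPKM + 1), 1 point per library (orange anterior, blue posterior; circle A, square B, triangle C) and a dotted line where the levels are equal. The 4 libraries of embryos A and B run parallel to the line in the collagen and laminin panels, and Nid1 gives no such course.

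Each gene was also set against the mean level of the 8 in each library, 5.40, 5.72 and 2.03 anterior against 3.43, 3.43 and 5.11 posterior. Above or below the median gene of the library, these means stood at 2.89, 2.28, -0.84, -0.07, 0.06 and 1.70 in the same order. Lamb1 followed the mean most closely (SD of the difference 0.24), and Nid1 least (1.75). Each of the 8 is itself part of that mean, which brings it nearer. Of genes outside the group, 0 lay nearer to the mean than Lamb1, 43 than Lamc1, 168 than Col4a1 and 268 than Sparc. The counts were 309 for Lama1, 319 for Col4a2, 1293 for Hspg2 and 4867 for Nid1. By the same measure over 6 libraries, the 6 nearest genes outside the group were Nprl3, Adora1, Dhx57, Nrip1, Ppp1r12c and Crtc3, with SDs of 0.24 to 0.39, where the median gene had 1.83. Nprl3, a subunit of the GATOR1 complex, was at 3.63, 3.86 and 0 against 1.16, 1.52 and 2.73. Nrip1, a nuclear receptor corepressor, was at 4.64, 4.08 and 0.64 against 2.25, 2.46 and 4.48.

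Markers of XEN-type and parietal endoderm were checked in the same libraries. Gata6, a factor that specifies primitive endoderm, was at 5.45, 4.78 and 0.21 anterior against 2.73, 3.67 and 1.29 posterior. Gata4 was at 3.31, 4.73 and 0 against 2.68, 2.22 and 4.02, and Sox7, an endoderm factor, at 4.74, 1.53 and 0 against 2.06, 3.48 and 5.05. Sox17 was at 1.87, 3.51 and 0 against 2.96, 2.64 and 4.39. Pth1r, the parathyroid hormone receptor gene of parietal endoderm, was at 6.44, 6.22 and 0.30 against 4.25, 3.94 and 6.27. Of the 13 markers 4 were listed at 0 in the library labelled anterior C, among them Gata4, Sox7 and Sox17, and 0 to 2 in each other library. Of all 10914 genes tested, 2073 were listed at 0 in the library labelled anterior C and 215 to 1761 in each other library. Thbd, a surface marker of parietal endoderm, was at 3.35 in posterior A and at most 0.35 elsewhere, so that marker of the label is near 0 in 5 libraries. The list mean minus the median gene was 1.89, 1.54 and -0.52 against 0.34, 0.67 and 0.94. The library labelled anterior C, with the lowest levels of 7 of the 8 genes, thus also had the lowest mean of this list, although Foxa2, Fst and Krt18 were at 4.22, 5.76 and 7.14 there, and the part of endoderm content in the differences was not tested.

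Markers of other cell types differed between libraries as well. The visceral endoderm list (9 of 12 genes in the table) had 7 of 9 listed at 0 in the library labelled anterior C, against 1 each in anterior A and B. Posterior counts at 0 were 2, 0 and 4. Of all 10914 genes tested, 1761, 735 and 2073 were listed at 0 anterior against 264, 215 and 1302 posterior. These background counts cover only genes that passed the filter on low values. The counts of the list cover all 9 genes, of which 7 passed it, so the 2 are not on the same footing. Rbp4 was at 8.63, 9.16 and 0 against 6.25, 6.58 and 0, so it was listed at 0 also in the library labelled posterior C, where the 8 genes had a mean of 5.11. Ttr, Cubn and Ihh of the same list were at 5.02, 3.57 and 3.71 in that posterior library. Lrp2 was at 6.17, 6.51 and 6.75 against 3.06, 3.33 and 4.91, so its highest level was in the library labelled anterior C. The mean of the epiblast markers minus the median gene was -1.18, -1.11 and 0.53 against 1.62, 0.49 and 0.85. All 10 epiblast markers were higher in the posterior domain on average, none past the adjusted threshold, where 7078 of all 10914 genes were higher. By embryo, 0, 2 and 3 of the 10 were lower in the posterior library of A, B and C. Trophoblast markers (7 of 9 in the table) lay below the median gene on average in all 6 libraries. Among them Gata3 was at 2.80 to 6.82, and Tfap2c at 0, 2.12 and 1.14 anterior against 4.45, 5.09 and 5.73 posterior. Of 3 endothelium and blood markers in the table, Cdh5 was at most 1.32. Pecam1 was at 0.15, 1.45 and 0 against 1.01, 0.76 and 3.60, and Runx1 at 3.78, 3.75 and 3.45 against 1.97, 3.09 and 3.44. The part of these cell types in the levels of the 8 genes was not tested.

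**Figure D4:**
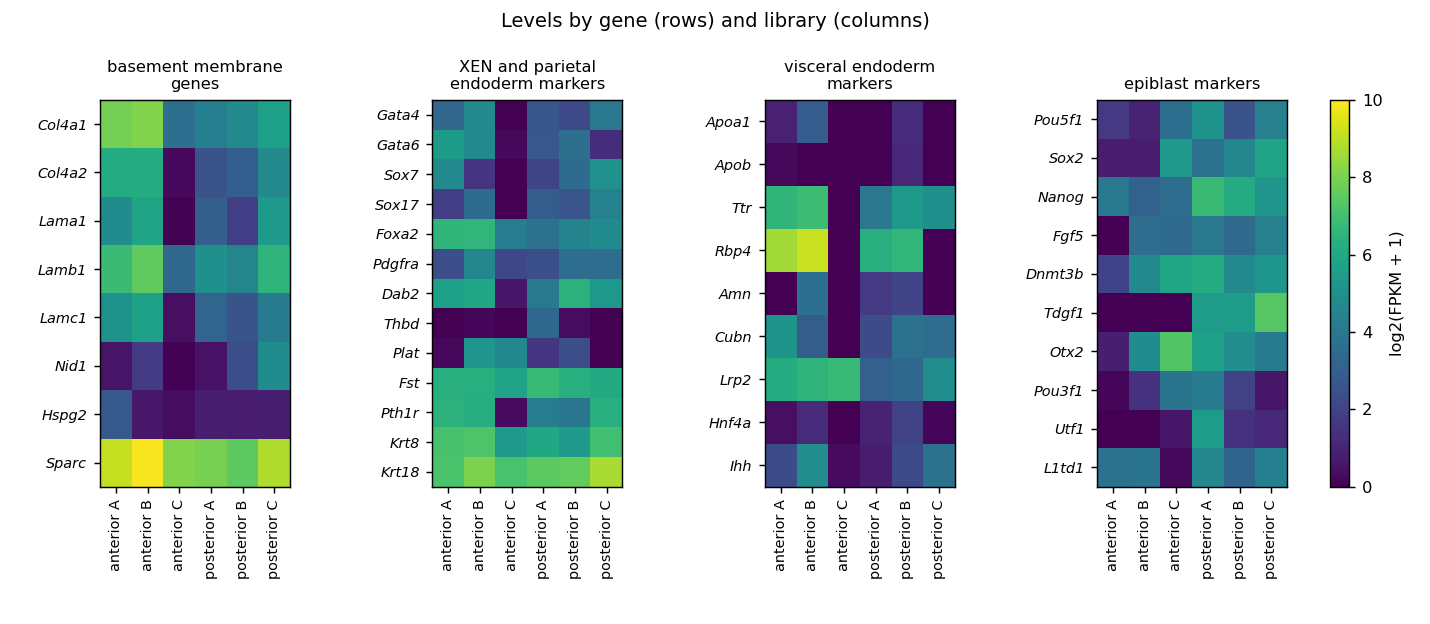
Colour gives log2(FPKM + 1) from 0 (dark) to 10 (yellow) for the 8 basement membrane genes, 13 XEN and parietal endoderm markers, 9 visceral endoderm markers and 10 epiblast markers (rows) in the 6 libraries (columns). The library labelled anterior C is dark for Col4a2, Lama1, Lamc1 and Nid1, for Gata4, Sox7 and Sox17, and for Ttr and Rbp4.

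Other components of basement membranes were taken from a list of 30, of which 20 were in the table and 15 in the fit. Of the 15, 8 were higher and 7 lower posteriorly, where 7078 of all 10914 genes were higher and 3836 lower. The median difference was 0.05 against 0.43 over all genes, and none passed the adjusted threshold with limma (1 unadjusted, Efemp1). The second nidogen, Nid2, was at 3.97, 4.03 and 0.27 anterior against 3.62, 4.08 and 4.21 posterior, so that it was above Nid1 in 5 of 6 libraries. Lama5, the other alpha chain in the table, was at 3.95, 2.26 and 1.96 against 3.58, 2.34 and 2.41, and thus lacked the low level of Lama1 in the library labelled anterior C. Tinagl1, a matrix protein related to cathepsins, was at 6.56, 6.90 and 0 against 4.46, 5.22 and 2.82. Pxdn, the peroxidase that makes the sulfilimine bonds of collagen IV, varied little, at 4.73, 4.42 and 3.69 against 3.49, 3.93 and 3.76. Col18a1, a collagen with heparan sulphate chains, was at 4.61, 3.86 and 2.43 against 3.29, 2.46 and 4.96. Efemp1, a fibulin, was at 1.51, 1.50 and 4.09 against 5.10, 3.64 and 5.50, a difference of 2.38 ± 0.92 (SE; adjusted p = 0.603 with limma) in the opposite direction to the collagen chains in A and B. Frem2 was at most 0.42 in the anterior libraries and at 1.20 to 2.72 in the posterior ones (adjusted p = 0.639 with limma). Smoc2 was listed at 0 in all libraries except posterior B, at 0.94, and the library labelled posterior C, at 4.38.

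Genes for the folding and export of collagen came from a list of 23. Of these, 20 were in the fit, 9 higher and 11 lower in the posterior domain (median difference -0.16), where 7078 of all 10914 genes were higher. None of the 20 passed at an adjusted or unadjusted 0.05. Medians by embryo were -0.56, -0.86 and 1.03. P4hb, the beta subunit of prolyl 4-hydroxylase, was at 7.46, 8.23 and 5.90 anterior against 6.81, 7.06 and 7.04 posterior. P4ha1, its catalytic subunit, was at 5.47, 7.07 and 6.46 against 4.82, 4.75 and 6.24, and Plod2, a lysyl hydroxylase, at 6.47, 7.76 and 7.57 against 4.76, 6.02 and 6.75. Both were lower in the posterior library of 3 of 3 embryos, with adjusted p = 0.693 for P4ha1 and 0.617 for Plod2 (limma). Neither was low in the library labelled anterior C, where Col4a2 was close to 0. Ppib, a proline isomerase, was at 6.39, 6.42 and 4.47 against 6.84, 6.53 and 7.18. Hsp90b1, a chaperone of the endoplasmic reticulum, lay between 7.91 and 8.94, and Klhl12, an adaptor for large collagen carriers, between 0.75 and 3.81.

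Receptors and remodelling enzymes came from lists of 17 and 14. Of 12 receptor genes in the fit 5 were higher and 7 lower posteriorly (all genes: 7078 and 3836 of 10914). Their median difference was -0.26, with none past an adjusted or unadjusted 0.05. Sdc4, a syndecan, was at 6.91, 9.49 and 9.72 anterior against 8.90, 8.35 and 9.38 posterior. Itgb1, the beta 1 integrin shared by laminin and collagen receptors, was at 5.01, 5.83 and 6.27 against 6.86, 6.26 and 5.64. Dag1, dystroglycan, lay between 4.35 and 5.65, Itgav between 4.60 and 5.77, and Itga6, an alpha chain of laminin receptors, between 2.60 and 5.19. The tetraspanin Cd151 was highest in anterior A, at 5.83, and at 3.46 to 4.17 elsewhere. Of 10 remodelling genes in the fit 4 were higher and 6 lower in the posterior domain (median -0.45). Over all 10914 genes, 7078 were higher and 3836 lower. None of the 10 passed at an adjusted or unadjusted 0.05. Timp3, a matrix-bound protease inhibitor, was at 4.98, 7.28 and 0 against 3.46, 3.70 and 5.89. Loxl2, a lysyl oxidase that crosslinks collagen IV, was at 6.76, 5.07 and 4.65 against 4.74, 4.59 and 5.58. Both were lower in posterior A and B and higher in the library labelled posterior C, as the collagen and laminin chains were. Mmp14, a membrane-bound metalloprotease, was at 4.41, 4.01 and 2.03 against 3.69, 1.63 and 1.58, and Adamts9 at 3.24, 3.47 and 2.13 against 2.51, 1.79 and 0.05. Plat, a plasminogen activator that is also among the 13 endoderm markers, was at 0.20, 5.20 and 4.68 against 1.58, 2.40 and 0, and Timp2 at 0.92, 2.48 and 3.55 against 1.91, 0.05 and 0. Over the 10 remodelling genes the differences were negative in 6, 7 and 7 for embryos A, B and C, where the 8 basement membrane genes gave 8, 6 and 0. Over all genes the shares were 30.8%, 48.2% and 40.9%.

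**Figure D5:**
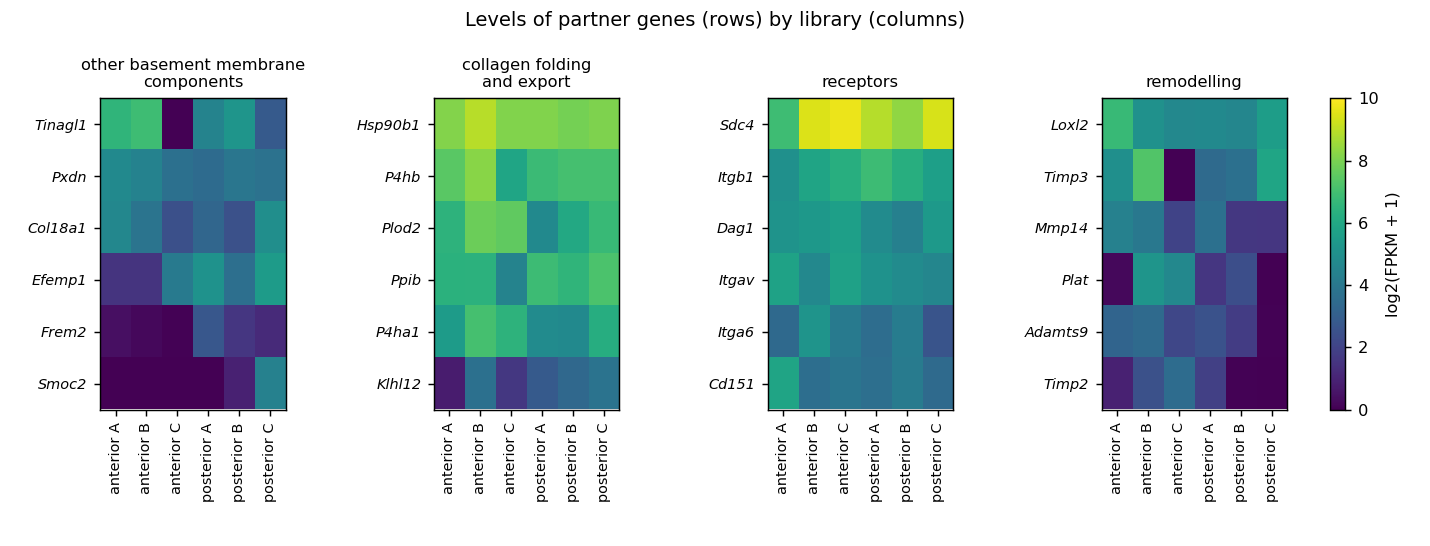
Colour gives log2(FPKM + 1) from 0 (dark) to 10 (yellow) for the 6 genes named from each of 4 lists (rows) in the 6 libraries (columns). Tinagl1 and Timp3 are listed at 0 in the library labelled anterior C, whereas Plod2, Sdc4 and Dag1 stay above 4 in all 6.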

How the data were processed

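Per the labels' protocols, libraries were made by Smart-seq2 (18 cycles) and run on a HiSeq 2500, and HTSeq-count quantified reads placed on Ensembl 38.77. The submitters' processing notes list TopHat2 2.0.4 and Cufflinks 2.0.2 with build mm10. The tool behind the values and any later normalization are not stated in the sources used here. The deposited values are log2 values of FPKM + 1: back-transformed entries over 3 had 6 significant digits or fewer in 98.8% to 99.1% per library, and in 0.17% or less if read as natural logarithms.

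For 10914 of 12826 genes, those averaging 1 FPKM or more, limma 3.58.1 (R 4.3.3) fitted domain plus embryo block, with the variance trend on (2 residual and 7.5 prior degrees of freedom), two-sided, with Benjamini-Hochberg adjustment at 0.05. The fit was tested on simulated data with a smaller spread than these libraries have, so that test did not measure its power here. Both pieces come from 1 embryo, which pairs them by the dissection. Their deviations from the group means correlated at -0.07, 0.04 and -0.03 in A, B and C. The 6 pieces of 3 embryos are not independent samples, so no correlation between genes over libraries is given.

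The 8 genes and the gene lists were chosen with earlier results of these data known. Named are the 8 genes, the 6 nearest to their mean, the 4 highest and the 2 with the smallest p of the others from each of 4 lists, and cell type markers. Nid2 and Lama5 were named after their values were seen. Positions, exon lengths and overlaps are from GENCODE vM21 (mm10), sequences from RefSeq (GRCm38.p6). Antisense models overlap exons of Col4a2 (Gm15419) and Nid1 (Gm48682) and were not analysed here. Use of strand in counting is not stated.

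Depth was taken from pairs of libraries: of genes under 1.5 FPKM in both, 3.53% to 10.4% lay within 0.01 in log2 of the step that equal read numbers give. The lowest step of FPKM times exon length was taken as 1 read. Reads behind a value are estimates, since the authors' gene lengths may differ. Read intervals cover counting error only. Alternatives are given in the closing section.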

Additional observations from a re-analysis of the deposited data

How the results depend on the processing

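The direction of each of the 8 genes by embryo held under pseudocounts of 0.1 and 10. After quantile normalization or subtraction of the library median, 1 gene, Hspg2, was lower in the library labelled posterior C, and after quantile normalization Hspg2 was lower in posterior B too. The mean difference kept its sign under 10 of 10 alternatives for Col4a1, Nid1 and Sparc. It changed sign under 3 for Col4a2, 4 for Lama1, 2 for Lamb1, 4 for Lamc1 and 2 for Hspg2, each time including the fit without embryo A. With no replicate block the domain comparison gave 912 genes higher and 119 lower at an unadjusted p under 0.05, and no gene past the adjusted threshold. With no block and without anterior A 191 were lower. With no block and without anterior C 232 were lower and 1 gene, Mir682, passed. Quantile normalization gave 276 lower, and subtraction of the median 429 higher and 297 lower. Leaving out an embryo gave 348 to 898 higher and 36 to 140 lower. A pseudocount of 10 moved Lamb1 minus Lamc1 to 1.37 and Lama1 minus Lamb1 to -1.30, as it compresses low values. Over 6 libraries Col4a2 ranked 29 among the genes nearest to Col4a1. The rank was 574 with a pseudocount of 0.1, 5 after quantile normalization, 1 to 397 with an embryo left out, and 3 without anterior C alone, an alternative added after seeing the data. Lamc1 ranked 10 among those nearest to Lamb1, then 234, 1, 2 to 192 and 3. The fixed ratios therefore rest on embryos A and B. The receptor median was -0.77 after quantile normalization, -0.74 with the median subtracted and -0.55 to -0.10 with an embryo left out. The remodelling median was -0.97 after quantile normalization and -1.08 with no block and without anterior C, but 0.01 with no block and without anterior A, where its sign turned. Over all alternatives the median ranged from -0.45 to 0.70 for the other components and from -0.72 to 0.36 for collagen folding, so neither has a stable sign. In the library labelled anterior C the levels of Col4a2, Lama1, Lamc1, Nid1 and Hspg2 each rest on about 1 to 13 reads. That library is not the shallowest (relative depth 1.43, anterior A 1), and Sparc had about 3700 reads in it. It also listed the fewest genes above 0 of the 6 libraries, 9335 against 9969 in the shallower anterior A. The part of library quality in these low levels was not tested.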
